A study of Rattus norvegicus with 12 samples.

Results

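PEG3, APEG3, CDKN1C and GNAS are imprinted genes whose expression was followed in the choroid plexus of rats in the light and in the dark phase. They were chosen by name, with their light and dark levels in these libraries already known, as the genes among PEG3, APEG3, NDN, CDKN1C and GNAS whose Ensembl identifier the study's tables pair with the symbol. This gave 4 genes of the 32883 in the files, and NDN, for which no pairing was held, was not analysed here. Choroid plexus from the lateral ventricles and the fourth ventricle of 12 male Sprague-Dawley rats, 9 weeks old, was sequenced with 1 library per rat. Of these, 6 rats were sampled at zeitgeber time 8 h (ZT8), in the light phase, and 6 at zeitgeber time 20 h (ZT20), in the dark phase. All rats were under ketamine and xylazine anesthesia, no gene or drug treatment separated the groups, and whole tissue was used. Expression is given as TPM, in which transcript length and library total are both taken into account, so that levels can be compared between genes. Each test measures the spread between rats, which were separate animals.

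Imprinted genes are transcribed mainly from the copy inherited from 1 parent. In rodents PEG3, which encodes a zinc finger transcription factor, is active on the paternal copy, and APEG3 is a noncoding RNA from the opposite strand of the PEG3 gene. CDKN1C encodes p57KIP2, an inhibitor of cyclin-dependent kinases that is active on the maternal copy, and GNAS encodes the stimulatory G protein alpha subunit, which couples hormone receptors to cAMP production, together with other products from alternative promoters. The choroid plexus is known among rodent tissues for transcribing IGF2, elsewhere a paternally expressed growth factor gene, from both copies. The parental origin of the transcripts was not measured here.

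The start regions of PEG3, APEG3 and ZIM1 are shown because these neighbouring genes had the largest differences between the phases among the imprinted genes named here. Each window runs from 250 bases before to 50 bases after the annotated start, 5′ to 3′ on the strand of the gene, from RefSeq on build GRCr8. The windows are chr1:76130744-76131043 (plus strand) for PEG3, chr1:76155366-76155665 (minus strand) for APEG3 and chr1:76164958-76165257 (plus strand) for ZIM1, and capitals mark matches to the motifs named in the paragraph that follows.
PEG3: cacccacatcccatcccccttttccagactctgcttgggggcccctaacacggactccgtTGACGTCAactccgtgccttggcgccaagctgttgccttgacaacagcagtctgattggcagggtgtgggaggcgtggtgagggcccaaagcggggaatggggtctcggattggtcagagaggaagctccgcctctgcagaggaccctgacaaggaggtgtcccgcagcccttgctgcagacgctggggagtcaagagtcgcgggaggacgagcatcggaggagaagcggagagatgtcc
APEG3: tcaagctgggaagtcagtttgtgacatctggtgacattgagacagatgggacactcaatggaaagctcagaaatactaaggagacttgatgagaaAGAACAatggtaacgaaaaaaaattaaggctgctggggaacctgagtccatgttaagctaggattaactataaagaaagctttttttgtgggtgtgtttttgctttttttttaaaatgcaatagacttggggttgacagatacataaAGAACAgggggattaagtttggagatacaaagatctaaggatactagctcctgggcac
ZIM1: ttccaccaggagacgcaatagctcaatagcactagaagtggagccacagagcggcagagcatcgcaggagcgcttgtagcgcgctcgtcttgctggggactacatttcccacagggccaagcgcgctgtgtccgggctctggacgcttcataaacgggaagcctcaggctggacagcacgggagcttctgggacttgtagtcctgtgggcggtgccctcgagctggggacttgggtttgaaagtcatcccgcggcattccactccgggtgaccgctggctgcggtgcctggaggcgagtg

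A search for 6 motifs was run on both strands, namely the E-box CACGTG, the D-box TTATGTAA or TTACGTAA, the Rev-Erb and ROR element AGGTCA, the YY1 core GCCATNTT, the cAMP response element TGACGTCA and the glucocorticoid receptor core AGAACA. The PEG3 window held 1 match, the cAMP response element at bases 61 to 68, a motif present in 1.83% of 33469 RefSeq windows of the same length. The APEG3 window held the glucocorticoid receptor core at bases 96 to 101 and again at bases 243 to 248, a motif present in 20.7% of all windows. The ZIM1 window and the 3 GNAS windows held 0 matches. E-boxes were present in 6.42%, D-boxes in 1.01%, Rev-Erb and ROR elements in 16.2% and YY1 cores in 6.96% of all windows. The PEG3 window had 16 CG dinucleotides, more than 69.5% of all windows, and the APEG3 window had 1, more than 5.47%. The most CG-rich of the GNAS windows had 41, more than 97.2% of all windows. In the same annotation 100% of the APEG3 span lies inside the PEG3 span on the opposite strand, where it takes up 3.48% of the gene. The starts of PEG3 and ZIM1 lie 34.2 kb apart, with the APEG3 start between them, 24.4 kb from that of PEG3.

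The library kit is not described as keeping strand, and the strand setting of the quantification is not given in the sources used here. Whether reads from PEG3 and from APEG3 were kept apart where the transcripts overlap is therefore not known, and APEG3 values may hold reads of PEG3 and the reverse.

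The libraries carried the transcripts of choroid plexus epithelium, with all 10 of 10 epithelial markers present and TTR, the thyroid hormone carrier transthyretin, between 253710 and 309722 TPM. The files hold no read counts, but steps in the FPKM of weakly expressed genes placed the depth of the libraries, taken over their mean, at 0.882 to 1.36 for light-phase rats and at 0.888 to 1.09 for dark-phase rats. Light-phase replicate 2 stood apart, with the lowest summed epithelial markers, 264788 TPM against 311337 TPM in the next light-phase library, and with 5535 TPM of the hemoglobin gene HBB against 1956 TPM in the next light-phase library. Each difference in the members is therefore also given without it.

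PEG3 was higher in the dark phase, by 105%, and the phases did not overlap. In the light phase its level was lowest at 32.6 TPM, had a median of 37.3 TPM and was highest at 50.7 TPM, in replicate 1, the deepest library. In the dark phase the lowest level was 73.0 TPM, the median 81.4 TPM and the highest 84.8 TPM. The gap between the lowest dark-phase library and the highest light-phase library was 22.3 TPM. The spread was narrower in the dark phase, with a coefficient of variation of 5.84% against 16.1%. The light-phase spread includes the high value of replicate 1 and was not computed without it. The light-phase mean was 39.1 ± 6.29 TPM (SD, n = 6) and the dark-phase mean 80.4 ± 4.69 TPM (SD, n = 6). On the log2(TPM + 0.5) scale the difference, dark against light, was 1.02 with a standard error of 0.08. It was 0.99 without light-phase replicate 2 and 1.09 without light-phase replicate 1, where the standard error was 0.05. Among the 12513 genes tested, 62 had a larger positive log2 difference, of which 32 had a limma FDR below 0.05. Because the level of PEG3 in these phases was known when it was chosen, no test is attached to it.

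APEG3 was higher in the dark phase by 100%, and its phases did not overlap either. Its level in the light phase was lowest at 30.4 TPM, with a median of 33.1 TPM and a highest value of 42.9 TPM, again in replicate 1. The dark-phase libraries ran from 61.4 TPM through a median of 70.6 TPM to 72.8 TPM. The lowest dark-phase library, replicate 4, was also the lowest dark-phase library for PEG3. The means were 34.6 ± 4.84 TPM (SD, n = 6) and 69.3 ± 4.27 TPM (SD, n = 6), a log2 difference of 0.98 with a standard error of 0.07, or 0.93 without light-phase replicate 2.

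The proportion of the APEG3 value to the PEG3 value varied little between libraries, and shared reads and levels that move together cannot be told apart in it. The ratio of APEG3 to PEG3 in TPM was 0.887 ± 0.0409 (SD, n = 6) for light-phase rats and 0.862 ± 0.0357 (SD, n = 6) for dark-phase rats, and over the 12 libraries it ran from 0.826 to 0.932. PEG3 exceeded APEG3 in 12 of 12 libraries. Variation between rats of the same phase was examined next, since it had no part in choosing the genes. Within the light phase PEG3 and APEG3 had Pearson r = 0.94 (exact permutation p = 0.00556, adjusted p = 0.0667 over 12 relations) and Spearman rho = 0.89 (exact permutation p = 0.0333, adjusted p = 0.400). Without the 2 libraries farthest from the median of PEG3, r was 0.95. Within the dark phase r was 0.71 (exact permutation p = 0.0917, adjusted p = 0.550), rho was 0.37 (exact permutation p = 0.497, adjusted p = 1.00) and r without the 2 farthest libraries was 0.60. After adjustment 0 of the 12 relations between the 4 genes passed 0.05, and the 10 others had r between -0.02 and 0.42 with an adjusted exact permutation p of 0.965 each, and rho between -0.26 and 0.71 with an adjusted exact permutation p between 0.700 and 1.00. Some of these values depended on the libraries farthest out. Without the 2 libraries farthest from the median of the member on the x axis, r in the light phase was 0.97 for PEG3 and CDKN1C, from -0.02, and 0.90 for APEG3 and CDKN1C, from 0.28, and in the dark phase it was -0.68 for PEG3 and GNAS, from 0.17.

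**Figure D1:**
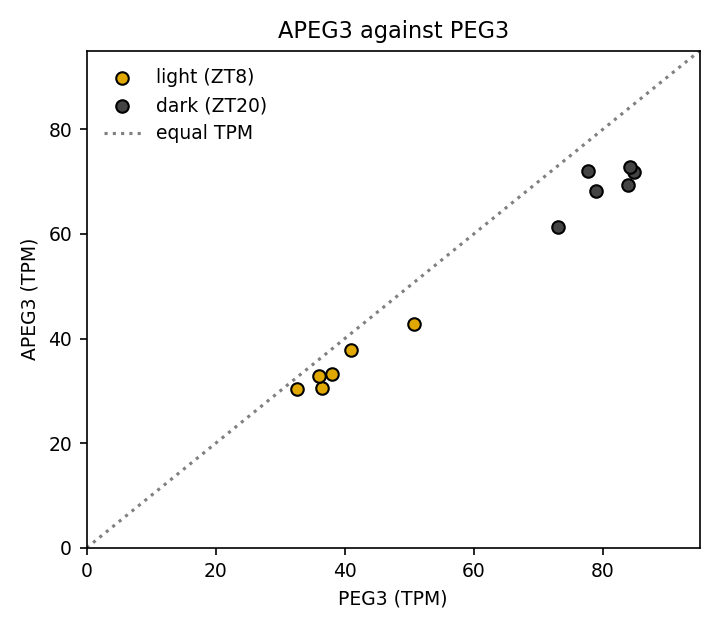
APEG3 against PEG3 in TPM, 1 point per library (yellow, light phase; gray, dark phase), with a dotted line at equal TPM; all 12 points lie under the line, at ratios between 0.826 and 0.932.

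CDKN1C, the cell cycle inhibitor, had the highest level of the 4 genes and was 18.2% higher in the dark phase, with overlapping phases. In the light phase the lowest level was 187 TPM, the median 194 TPM and the highest 225 TPM. That highest value came from replicate 3 and stood apart from the next library, at 199 TPM. In the dark phase the lowest level was 220 TPM, the median 229 TPM and the highest 264 TPM, so that 4 of 6 dark-phase libraries lay above every light-phase library. The means were 198 ± 13.8 TPM (SD, n = 6) and 234 ± 16.1 TPM (SD, n = 6). The log2 difference was 0.22 with a standard error of 0.06, and it was 0.19 without light-phase replicate 2 and 0.26 without light-phase replicate 3.

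GNAS, the G protein gene, differed by 6.50% between the means, and its phases overlapped. Light-phase libraries lay between 73.0 and 87.2 TPM with a median of 82.4 TPM, and dark-phase libraries between 75.4 and 101 TPM with a median of 83.8 TPM. Replicates 2 and 6 of the dark phase were the 2 libraries above all of the light phase. The means were 81.6 ± 4.74 TPM (SD, n = 6) and 86.9 ± 10.2 TPM (SD, n = 6), and the log2 difference of 0.06 was smaller than its standard error of 0.07. Without light-phase replicate 2 it was again 0.06, without dark-phase replicate 2 it was 0.02 and without dark-phase replicate 3 it was 0.11. Whether the identifier holds the transcripts of all GNAS promoters was not tested.

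**Figure D2:**
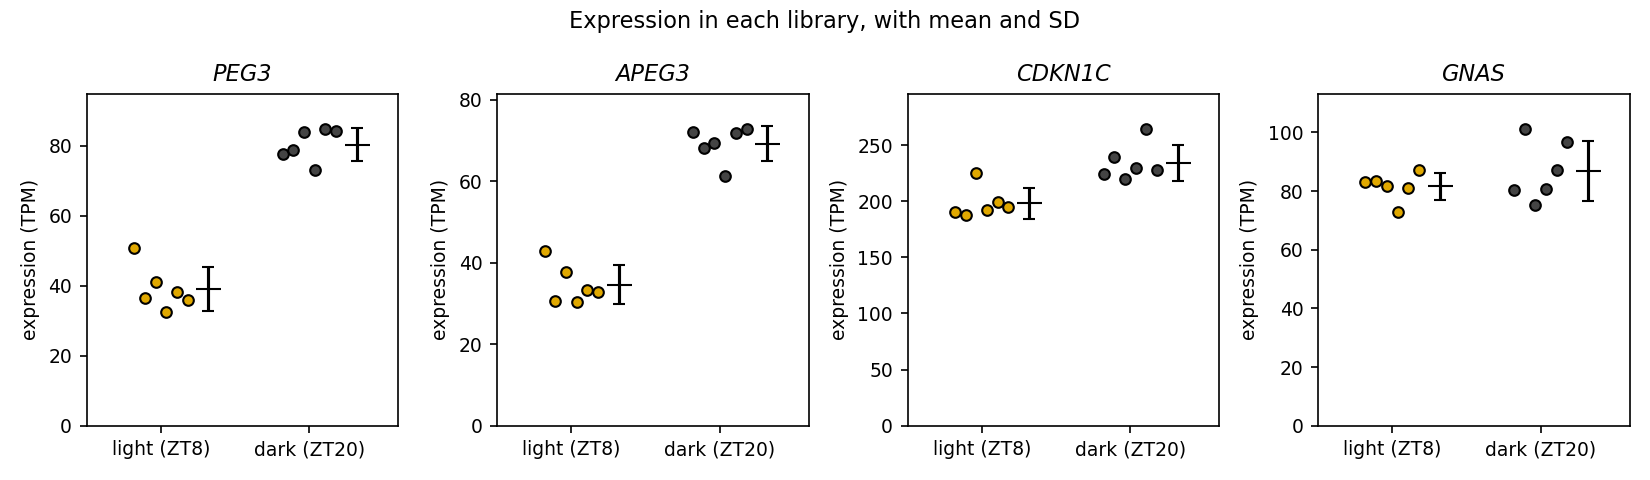
Expression in TPM of PEG3, APEG3, CDKN1C and GNAS in each of the 6 light-phase (yellow) and 6 dark-phase (gray) libraries, with the mean and SD beside the points. PEG3 and APEG3 show a gap between the phases, with light-phase maxima of 50.7 and 42.9 TPM against dark-phase minima of 73.0 and 61.4 TPM, whereas the ranges of CDKN1C and GNAS overlap.

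All 4 genes were expressed at more than 1 TPM and entered the fit over all genes. In that fit limma called 17.7% of the 12513 genes at an FDR below 0.05, with 9.36% higher and 8.38% lower at ZT20. The 4 genes were chosen on this contrast, so no call is given for them. The phases did not overlap in 8.26% of all tested genes, and in 5.12% this was with the dark phase on top, as in 2 of the 4 genes, PEG3 and APEG3. The 4 genes lay between the percentiles 84.2 (APEG3) and 96.3 (CDKN1C) of the mean levels of all tested genes. CDKN1C exceeded the other 3 genes in 12 of 12 libraries. GNAS exceeded PEG3 in 11 of 12 libraries, in the light phase in 6 of 6 without overlap of their ranges and in the dark phase in 5 of 6 with overlap. The ranges of PEG3 and APEG3 overlapped in the light phase and did not in the dark phase.

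Genes with the most similar variation were ranked by Pearson r over the deviations from the phase means in the 12 libraries, as a description without a test. APEG3 ranked 2 among all tested genes for likeness to PEG3, with r = 0.91. ENSRNOG00000053948, for which no symbol was held and which averaged 6.07 TPM, ranked 1 for PEG3 (r = 0.93) and also 1 for APEG3 (r = 0.94). For CDKN1C the only gene with a symbol among the 3 most similar was TYW3, a gene of tRNA modification (r = 0.87). None of the 3 genes most similar to GNAS, with r between 0.88 and 0.89, had a symbol. In all of these values the genes compared share the scaling and the tissue composition of each library, which differ between libraries.

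Markers of other cell types were set beside these differences. In this bulk tissue, fewer cells of a type and less RNA per cell cannot be told apart. Of the 6 marker lists analysed, 0 differed between the phases in summed TPM (two-sided exact permutation test, adjusted p between 0.847 and 1.00, n = 6 each), and 0 had an unadjusted p below 0.05. With the mean log2 level of the markers in place of their sum, the epithelial list had an unadjusted exact permutation p of 0.0195 (adjusted p = 0.117, a difference of 0.0837) and the mural list one of 0.0584 (adjusted p = 0.175, a difference of -0.389). The mural difference includes light-phase replicate 2, with RGS5 at 325 TPM (light-phase median 139 TPM) and TAGLN at 95.8 TPM (light-phase median 48.8 TPM). The mural list was not tested without this library. The epithelial sum consists mostly of TTR. Single markers were also called in limma, 8 of 19, of which 6 were among the 10 epithelial markers, all above 60 TPM, where 23.2% of all genes were called. PRLR, KL, CLIC6 and OTX2 rose and AQP1 and SLC4A5 fell, with log2 fold changes from -0.38 for AQP1 to 0.66 for PRLR. With the replicate number as a block CLIC6 was not called (limma FDR = 0.0543), at the same log2 fold change of 0.17. With the ratio of summed FPKM to summed TPM as a term, PRLR (limma FDR = 0.00742) and KL (limma FDR = 0.0177) were the only markers of the 8 still called. The log2 fold changes of the others in that fit were -0.38 for AQP1, -0.24 for SLC4A5, 0.22 for CLIC6, 0.29 for OTX2, -0.88 for TAGLN and -0.30 for PTPRC. Among mural markers TAGLN fell by 0.73 on the log2 scale (limma FDR = 0.0269). This call was lost without any 1 of light-phase replicate 5 and dark-phase replicates 2, 3 and 6, with limma FDR from 0.0531 to 0.0602. Among macrophage markers PTPRC fell by 0.36 on the log2 scale (limma FDR = 0.0483), a call that held only without light-phase replicate 4 or dark-phase replicate 4 and otherwise had limma FDR from 0.0580 to 0.103 with 1 library left out. The PTPRC call was also lost in other alternatives, among them TPM as deposited (limma FDR = 0.0734) and the replicate number as a block (limma FDR = 0.105). TAGLN and PTPRC both averaged under 60 TPM, where limma called 56.1% of all genes with a symbol. The macrophage markers CD74 (log2 fold change 0.07, limma FDR = 0.809) and LYZ2 (-0.05, limma FDR = 0.790) were not called. The part of these markers in the differences of the members was not tested, except that a fit with the stromal marker sum as a term gave log2 differences of 1.02 for PEG3, 0.98 for APEG3, 0.22 for CDKN1C and 0.07 for GNAS. The stromal fibroblast sum, from DCN and PDGFRA as 2 of 8 markers, ran from 135 to 216 TPM at ZT8 and from 145 to 228 TPM at ZT20. The summed mural markers, 2 of 6, ran from 170 to 420 TPM and from 165 to 250 TPM, and the summed macrophage markers, 3 of 6, from 591 to 955 TPM and from 652 to 867 TPM. The endothelial marker PLVAP, 1 of 6, ran from 58.5 to 124 TPM and from 56.7 to 96.8 TPM, and HBB, 1 of 3 blood markers, from 1406 to 5535 TPM and from 839 to 2190 TPM. Neuronal and astrocyte markers had no pairing and were not analysed here, and their part in the PEG3 difference was not tested. The summed FPKM divided by the summed TPM, which reflects the length of the transcripts sampled, ran from 0.953 to 0.987 at ZT8 and from 0.934 to 0.960 at ZT20. Its part in the result was not tested beyond a fit with this ratio as a term, in which the log2 difference was 0.90 for PEG3, 0.90 for APEG3, 0.34 for CDKN1C and 0.08 for GNAS. Because the ranges of the ratio overlapped little between the phases, calls lost in that fit cannot tell ratio and phase apart.

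Other genes imprinted in rodents were then compared in the same fit. Of 65 such genes listed, 14 had a symbol and were tested, of which 6 passed the limma threshold, 5 upward at ZT20 and 1 downward. The 14 had a median log2 difference of 0.08, beside -0.01 over all tested genes. Both this median and the share called depend on how symbols were obtained. Below a mean of 60 TPM, genes were paired mostly through the study's table of differentially expressed genes, and limma called 56.1% of all genes with a symbol at that level and 6 of the 8 imprinted genes. At 60 TPM and above, where 1682 of 1703 genes had a symbol, limma called 23.2% of all genes (9.92% higher and 13.3% lower at ZT20) and 0 of the 6 imprinted genes, of which 1 had an unadjusted p below 0.05. The median log2 difference was 0.27 for the 8 imprinted genes under 60 TPM. For the 6 at 60 TPM and above it was -0.01, beside -0.03 for all genes at that level.

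**Figure D3:**
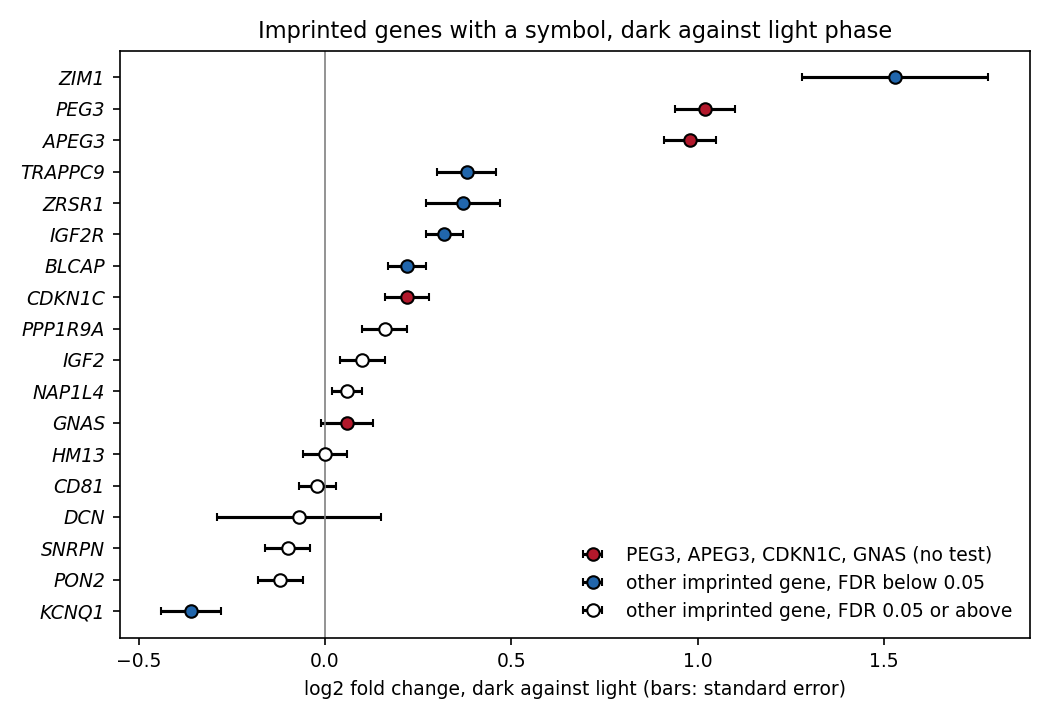
Log2 fold change, dark against light phase, with its standard error for PEG3, APEG3, CDKN1C and GNAS (red) and for the 14 other imprinted genes with a symbol (blue, limma FDR below 0.05; white, 0.05 or above). ZIM1 lies farthest to the right at 1.53 and KCNQ1 farthest to the left at -0.36.

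ZIM1, a zinc finger gene beside PEG3 that is active on the maternal copy in mouse, had the largest difference of the list. Its light-phase libraries ran from 0.73 TPM to 1.71 TPM and its dark-phase libraries from 1.70 TPM, in replicate 5, to 6.29 TPM. The other 5 dark-phase libraries all lay above the light phase. Its log2 fold change was 1.53, with a standard error of 0.25 (limma FDR = 0.00122). ZIM1 is weakly expressed, so that the 0.5 TPM added before the logarithm lowers this value. All called genes of this list averaged under 60 TPM, where symbols came mostly from the study's table of differentially expressed genes. That table came from these same libraries, so the FDR values of the called genes are not independent support.

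IGF2R, which encodes the receptor that removes IGF2 and sorts lysosomal enzymes, rose, with 28.1 to 33.6 TPM at ZT8 and 35.4 to 40.7 TPM at ZT20 and no overlap. Its log2 fold change was 0.32, with a standard error of 0.05 (limma FDR = 0.000693). TRAPPC9, a subunit of a vesicle tethering complex, rose from 22.1 ± 2.31 to 29.1 ± 1.71 TPM (mean ± SD, n = 6 per phase; log2 fold change 0.38, limma FDR = 0.00541), also without overlap. ZRSR1, a splicing factor gene, had 10.2 ± 2.12 TPM and 13.3 ± 0.721 TPM (mean ± SD, n = 6 per phase; log2 fold change 0.37, limma FDR = 0.0191), and 2 of its 6 dark-phase libraries lay above every light-phase library. BLCAP rose from 50.9 ± 2.63 to 60.3 ± 4.22 TPM (mean ± SD, n = 6 per phase; log2 fold change 0.22, limma FDR = 0.0132). With the replicate number as a block ZRSR1 (limma FDR = 0.0580) and BLCAP (limma FDR = 0.0539) were not called, at the same log2 fold changes. KCNQ1, a potassium channel gene in the domain that also holds CDKN1C, fell from 22.6 ± 0.711 to 17.8 ± 2.42 TPM (mean ± SD, n = 6 per phase; log2 fold change -0.36, limma FDR = 0.00945), opposite in sign to the difference of CDKN1C and without overlap. When the ratio of total FPKM to TPM entered the fit, 0 of these 6 genes passed in limma, with FDR between 0.0524 and 0.435. Their log2 fold changes in that fit were 1.43 for ZIM1, 0.27 for IGF2R, 0.50 for TRAPPC9, 0.24 for ZRSR1, 0.31 for BLCAP and -0.22 for KCNQ1, and the standard errors were larger, for example 0.41 for ZIM1 and 0.12 for TRAPPC9. The ratio was mostly lower at ZT20 (0.934 to 0.960) than at ZT8 (0.953 to 0.987), so that this fit cannot fully separate it from phase.

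**Figure D4:**
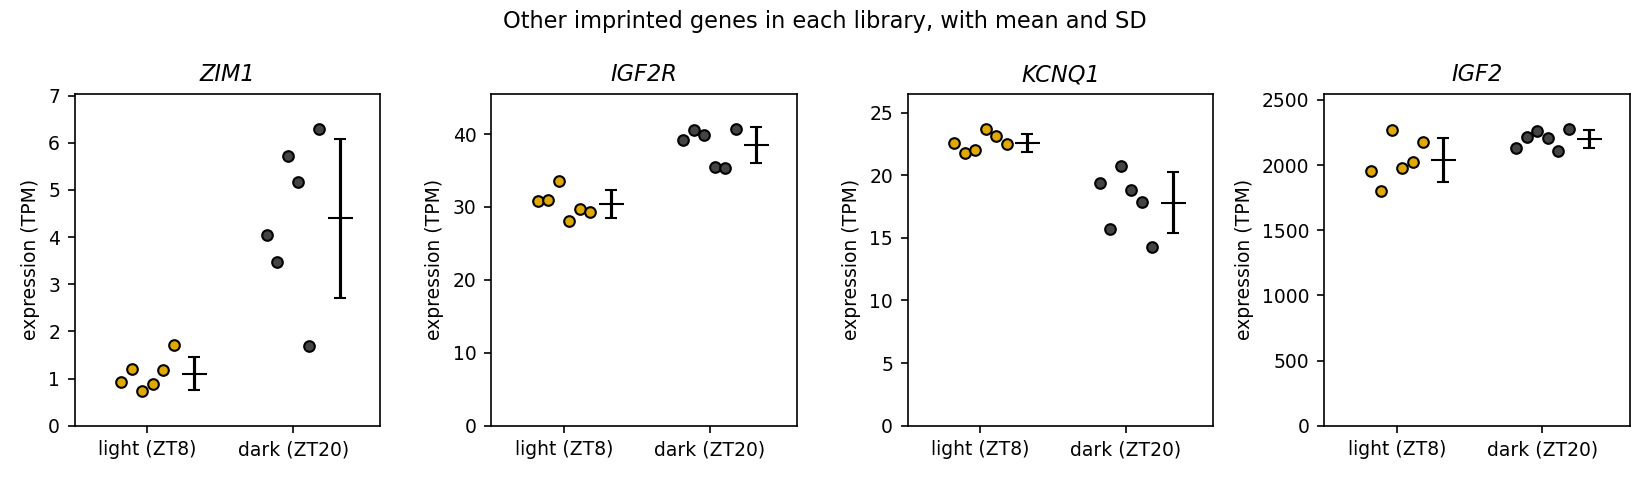
Expression in TPM of ZIM1, IGF2R, KCNQ1 and IGF2 in each of the 6 light-phase (yellow) and 6 dark-phase (gray) libraries, with the mean and SD beside the points. ZIM1 and IGF2R lie higher and KCNQ1 lower in the dark phase, and the IGF2 ranges overlap.

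The 3 most abundant imprinted genes that were not called were IGF2, CD81 and PON2. IGF2 had 2036 ± 169 TPM at ZT8 and 2199 ± 68.6 TPM at ZT20 (mean ± SD, n = 6 per phase), with overlapping ranges (log2 fold change 0.10, limma FDR = 0.334). CD81, a tetraspanin of the cell surface, had 1131 ± 59.9 TPM and 1131 ± 32.2 TPM (mean ± SD, n = 6 per phase; log2 fold change -0.02, limma FDR = 0.830). PON2, an antioxidant enzyme gene, had 147 ± 12.3 TPM and 136 ± 5.62 TPM (mean ± SD, n = 6 per phase; log2 fold change -0.12, limma FDR = 0.154). DCN, HM13, NAP1L4, PPP1R9A and SNRPN were not called either.

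The partners of CDKN1C and GNAS were followed through lists of cell cycle and of Gs and cAMP genes. Of 25 cell cycle genes, 5 had a symbol and 3 were called. At 60 TPM and above this was 1 of 3, beside 23.2% of all genes at that level, and below 60 TPM it was 2 of 2, beside 56.1% of the genes with a symbol there, so that nothing is read from the count. CDKN1A, which like CDKN1C encodes an inhibitor of cyclin-dependent kinases, rose from 205 ± 17.1 to 335 ± 31.8 TPM (mean ± SD, n = 6 per phase; log2 fold change 0.69, limma FDR = 1.92e-05). Its phases did not overlap. The kinase genes CDK6 and CDK4 moved in opposite directions, both without overlap. The log2 fold change was 0.52 for CDK6 (limma FDR = 0.00400), and for CDK4 it was -0.24 (limma FDR = 0.0127). Both kinase genes averaged under 60 TPM, so these FDR values are not independent support either. With the ratio of summed FPKM to summed TPM as a term, CDKN1A was still called (log2 fold change 0.70, limma FDR = 0.00459), while CDK6 (0.60, limma FDR = 0.0805) and CDK4 (-0.13, limma FDR = 0.454) were not. Of 41 Gs and cAMP genes, 10 had a symbol and limma called 0, while 4 had an unadjusted p below 0.05, as had 30.8% of all tested genes. The shares called were 0 of 5 at 60 TPM and above and 0 of 5 below, beside the same 23.2% and 56.1%. The smallest p values belonged to PKIG, an inhibitor of protein kinase A, with 150 ± 19.2 TPM and 128 ± 10.9 TPM (mean ± SD, n = 6 per phase; log2 fold change -0.24, limma FDR = 0.0559), and to RAPGEF4, a cAMP-activated exchange factor, with 3.85 ± 0.430 TPM and 3.03 ± 0.549 TPM (mean ± SD, n = 6 per phase; log2 fold change -0.33, limma FDR = 0.0570).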

How the data were processed

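Choroid plexus RNA of 12 rats was sequenced, 1 library for each animal. The authors used STAR 2.7.9a with Rnor_6.0 and then RSEM 1.3.3, whose TPM for 32883 genes they deposited. The deposited FPKM values come from the same output and served for relative depth, for a ratio of summed FPKM to summed TPM and in an alternative fit. The study tested read counts, and because TPM are no counts limma was used here.

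Each library was scaled by a trimmed mean of log ratios (30% of ratios and 5% of levels trimmed at either end). The 12513 genes averaging 1 TPM or more were analysed as log2(TPM + 0.5) and fitted with phase alone (R 4.3.3, limma 3.58.1, moderated variances with trend, Benjamini-Hochberg adjustment, FDR 0.05). Levels are given in TPM as deposited. Exact tests and figures used Python 3.11.15 with scipy 1.17.1, numpy 2.4.6, pandas 2.3.3 and matplotlib 3.10.9. Relative depth was read from the FPKM of 342 weak genes listed at 0 in several libraries, and the number of reads behind a value is unknown, so errors are spreads between rats. No pair of libraries was identical. The fit was also run on simulated data, from which no result is given here.

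Symbols came from supplementary tables of the study, partly held here, so that 3627 tested genes had a symbol. The members and lists were chosen with earlier results of these data known. The text names the 4 members, all called genes of the other imprinted list and its 3 most abundant uncalled genes, the 3 smallest p among called genes (or 2 smallest p) in the other lists, the 3 genes most similar to each member where they have a symbol, and values that stood apart. ENSRNOG00000053948 is named for ranking highest for both PEG3 and APEG3, and DCN, HM13, NAP1L4, PPP1R9A, SNRPN and the marker genes, the called ones included, were named outside this rule. Alternatives were other scalings, pseudocounts, filters, FPKM, robust moderation, library weights, a replicate block, covariates and leaving out each library. Motif searches used exact matches. Of the marker lists, 1 is not reported here.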

Additional observations from a re-analysis of the deposited data

Results flagged for a closer look

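Values were compared within each phase by the gap of the highest or lowest library to its neighbour, relative to the range of the 6 libraries, for the 4 members, the ratio of APEG3 to PEG3, the 14 other imprinted genes and 6 marker sums. In 50 groups, 7 values stood apart, and chance alone marks about 5% of groups. CDKN1C stood apart in light-phase replicate 3, at 225 TPM against 199 TPM in the next library. TRAPPC9 was lowest in light-phase replicate 2, at 17.5 TPM against 22.1 TPM. The same library held the lowest choroid epithelium marker sum, 264788 TPM, and the highest endothelium, mural and blood marker sums, at 124, 420 and 5535 TPM. In dark-phase replicate 5 the endothelium marker sum stood apart at 96.8 TPM, and this was also the dark-phase library with the lowest ZIM1 and the highest CDKN1C.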

How the results depend on the processing

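Over 24 alternative fits the log2 fold changes ran from 0.90 to 1.09 for PEG3, 0.90 to 1.04 for APEG3, 0.19 to 0.34 for CDKN1C and 0.02 to 0.11 for GNAS, whose standard error was 0.07. Of these, CDKN1C moved by more than the spread between libraries when the ratio of total FPKM to TPM was a term, to 0.34. With that term 343 genes were called, beside 2219 without it, and 0 of the 6 imprinted and 1 of the 3 cell cycle genes (CDKN1A). The 6 imprinted genes kept their sign there, with log2 fold changes such as 1.43 for ZIM1 and 0.50 for TRAPPC9 and larger standard errors. The ratio itself differed between the phases, so that calls lost in this fit cannot tell ratio and phase apart. Leaving out each library gave 1704 to 2278 called genes and 0 to 2 called Gs and cAMP genes (1 without light-phase replicate 4, 2 without dark-phase replicate 2). Gs and cAMP genes called were 1 with a minimum of 5 TPM and 3 with library weights. Restricted to 60 TPM and above, a limit chosen after seeing the data, 0 imprinted and 1 cell cycle genes were called of fewer tested. Same-numbered libraries did not resemble each other most (correlations -0.11 to 0.05, 0 of 6 matching best). Whether same-numbered rats were collected or processed together is not known here. With the replicate block 1591 genes were called, and BLCAP (FDR = 0.0539) and ZRSR1 (FDR = 0.0580), with the same log2 fold changes of 0.22 and 0.37, were not, leaving 3 imprinted genes called as higher in the dark phase. The correlation of PEG3 and CDKN1C in the light phase was 0.13 with TPM as deposited. The stromal and macrophage differences changed sign to -2.61 and -1.48 TPM when scaled, and to -0.000641 and -0.112 as mean log2 values, where the epithelial list had an unadjusted exact permutation p of 0.0195 (adjusted p = 0.117). The paper states a sequencing output, but the reads counted in each library are not known here. Counting error, largest for weak genes such as ZIM1, was therefore not given.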
